A study of Mus musculus with 8 samples.

Results

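The genes described here are the transcriptional cofactors YAP (Yap1) and TAZ (Wwtr1), the 4 TEAD transcription factors (Tead1, Tead2, Tead3 and Tead4), and 4 genes widely used as readouts of their activity (Ccn1, also written Cyr61; Ccn2, also written Ctgf; Ankrd1; Amotl2). They were picked by symbol, with earlier results of these data known, and are 10 of the 55573 genes in the count table. RNA-seq of polyadenylated RNA was done in mouse embryonic stem cells (ESCs), with 2 libraries per group and 8 in all. In 2C::GFP+/SA, cells of the genotype labelled 2C::GFP+ were kept in KnockOut medium with 20% serum replacement and 10 ng/ml IL6/sIL-6R, and received the DOT1L inhibitor SGC0946 at 2 µM and AS8351, which inhibits the demethylase KDM5B, at 2 µM. In 2C::GFP+/SGC the same genotype received SGC0946 at 2 µM in KnockOut medium with 20% serum replacement and LIF at 10 ng/ml. 2C::GFP+ is the untreated genotype, and mESC is untreated wild type. The genotype's name points to a GFP reporter of the 2-cell-like state, a minor state of ESC cultures that shares transcripts with the 2-cell embryo.

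Several features limit these groups as models. Sorting for the reporter and the number of clones are not stated in the labels, nor whether the 2 libraries of a group came from separate cultures, so p-values measure only the spread between these libraries, which may be technical. The growth protocol names 2 media and not which one mESC and untreated 2C::GFP+ had, so medium and group cannot be told apart in comparisons with either. 2C::GFP+/SA differs from 2C::GFP+/SGC by AS8351 and by IL6/sIL-6R in place of LIF, and these changes cannot be told apart. The 2C::GFP+ columns were assigned by elimination, on which every comparison with 2C::GFP+ rests. Replicate 1 libraries held 96895327 to 145810034 counts and replicate 2 libraries 12299931 to 19544870, so 3 counts, the limit that a count of 0 allows, correspond to between 0.0206 and 0.244 CPM (counts scaled to library size by TMM). ESC markers were abundant in all libraries: 12 of 12 had counts, and their sum was 5719 to 6000 CPM in 2C::GFP+/SA, 5670 to 5697 CPM in 2C::GFP+/SGC, 6443 to 7351 CPM in 2C::GFP+ and 6997 to 7501 CPM in mESC. The sum of 14 2-cell-like markers was 4409 to 11022 CPM in 2C::GFP+/SA, 2005 to 2042 CPM in 2C::GFP+/SGC, 804 to 997 CPM in 2C::GFP+ and 4.72 to 14.4 CPM in mESC.

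In the Hippo pathway, a kinase cascade ending in LATS1 and LATS2 phosphorylates YAP and TAZ, which are then held in the cytoplasm or degraded. When the cascade is quiet, YAP and TAZ enter the nucleus and bind TEAD factors, since they cannot bind DNA themselves, and activate genes such as Ccn1, Ccn2, Ankrd1 and Amotl2. In the mouse embryo this switch separates outer from inner cells: TEAD4 with nuclear YAP turns on Cdx2 in the outer cells, which form the trophectoderm. The control acts mainly on the YAP and TAZ proteins and their location, which RNA levels do not measure.

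TEAD factors recognise a motif with the letters GGAATG. It and its reverse complement, CATTCC, were searched on both strands of 300-base promoter windows from RefSeq (build GRCm38.p6; 250 bases before to 50 after an annotated start). Of the 10 genes, 7 had a window, and no window was used for Tead1, Tead4 or Ccn2. The motif stood in a window of 6 of these 7 genes (Yap1, Wwtr1, Tead3, Ccn1, Ankrd1 and Amotl2, but not Tead2). By window it stood in 8 of the 10 windows these genes hold, some of them overlapping, beside 14.7% of all 32851 windows. The AP-1 motif TGANTCA, searched the same way, stood in 0 of the 10 windows and in 7.81% of all windows. The windows of the 3 target genes and of Tead2 are given in gene orientation because these targets are the genes held to respond to TEAD binding and Tead2 alone lacked the motif. Capitals mark the motif on either strand. The windows lie at chr3:145649936-145650235 (minus strand) for Ccn1, chr9:102717554-102717853 (plus) for Amotl2, chr19:36119795-36120094 (minus) for Ankrd1 and chr7:45215542-45215841 (plus) for Tead2.
Ccn1: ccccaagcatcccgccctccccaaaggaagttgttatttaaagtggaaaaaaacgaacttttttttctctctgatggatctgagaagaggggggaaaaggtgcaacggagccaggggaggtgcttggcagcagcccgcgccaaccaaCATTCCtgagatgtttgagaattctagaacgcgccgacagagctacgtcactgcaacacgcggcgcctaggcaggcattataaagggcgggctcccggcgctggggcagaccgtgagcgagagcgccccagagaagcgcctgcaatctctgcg
Amotl2: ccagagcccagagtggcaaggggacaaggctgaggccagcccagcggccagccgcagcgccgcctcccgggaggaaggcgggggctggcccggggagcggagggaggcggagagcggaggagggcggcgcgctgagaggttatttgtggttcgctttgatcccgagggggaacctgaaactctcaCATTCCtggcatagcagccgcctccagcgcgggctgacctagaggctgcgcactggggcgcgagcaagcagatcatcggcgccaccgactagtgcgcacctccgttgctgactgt
Ankrd1: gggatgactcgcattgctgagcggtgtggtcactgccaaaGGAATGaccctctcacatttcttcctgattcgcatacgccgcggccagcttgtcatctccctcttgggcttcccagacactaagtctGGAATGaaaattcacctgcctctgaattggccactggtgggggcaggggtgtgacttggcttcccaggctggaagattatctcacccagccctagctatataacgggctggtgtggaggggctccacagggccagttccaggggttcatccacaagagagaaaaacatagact
Tead2: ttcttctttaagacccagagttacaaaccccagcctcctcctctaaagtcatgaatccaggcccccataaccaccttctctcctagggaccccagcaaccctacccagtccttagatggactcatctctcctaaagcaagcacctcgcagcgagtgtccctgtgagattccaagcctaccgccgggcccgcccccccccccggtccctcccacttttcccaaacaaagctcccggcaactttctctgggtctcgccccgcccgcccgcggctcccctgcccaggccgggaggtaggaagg
In Ccn1 the motif occupied bases -103 to -98 from the start and in Amotl2 bases -65 to -60, both as CATTCC. Ankrd1 held GGAATG at -210 to -205 and again at -123 to -118. Yap1 held it at -141 to -136, Wwtr1 at -136 to -131 of one window (the same letters lie at -170 to -165 of a second, overlapping one), and Tead3 held 3 matches in one of its windows. A match describes letters only and is not evidence of binding. The Amotl2 and Ankrd1 windows lie inside the genes as GENCODE M21 annotates them, since the annotated genes start upstream. The same holds for the Tead3 window at chr17:28350297-28350596, which held no match.

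The targets Ccn1, Ccn2 and Amotl2 rose in 2C::GFP+/SA, Tead2 and Tead4 fell there, and Yap1 and Tead3 passed the test in no comparison. In 2C::GFP+/SA against 2C::GFP+, 4 of the 9 genes tested were higher (Ccn2, Ccn1, Amotl2, Tead1) and 3 were lower (Tead4, Tead2, Wwtr1), where 14.9% of all 20608 genes tested were higher and 13.8% lower. Ankrd1 did not pass the filter on low counts. In 2C::GFP+/SA against 2C::GFP+/SGC, 3 were higher (Ccn2, Amotl2, Ccn1) and 2 lower (Tead2, Tead4), with 7.92% of all genes higher and 8.18% lower. In 2C::GFP+/SA against mESC, 3 were higher (Ccn2, Ccn1, Amotl2) and 3 lower (Tead4, Tead2, Wwtr1), with 25% and 20.1% of all genes higher and lower. In 2C::GFP+ against mESC, 2 were higher (Ccn2, Tead2) and 2 lower (Tead4, Tead1), with 15.2% and 9.12% of all genes. Between 2C::GFP+/SGC and 2C::GFP+ none was called by edgeR's quasi-likelihood test, as for all genes (0% higher and 0% lower). Here 2 of the 9 (Ccn2 and Tead4) had an unadjusted p under 0.05, as did 2037 of all genes, and DESeq2 called 1 of the 9 (Ccn2) and 275 of all genes. The median log2 fold change of the 9 genes was -0.15 in 2C::GFP+/SA against 2C::GFP+ and 0.03 in 2C::GFP+ against mESC, and that of all genes was 0.01 and 0.04. These comparisons share groups, so their values are given side by side and not compared with each other as independent evidence. In bulk RNA, fewer cells of a type and less RNA per cell cannot be told apart.

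**Figure D1:**
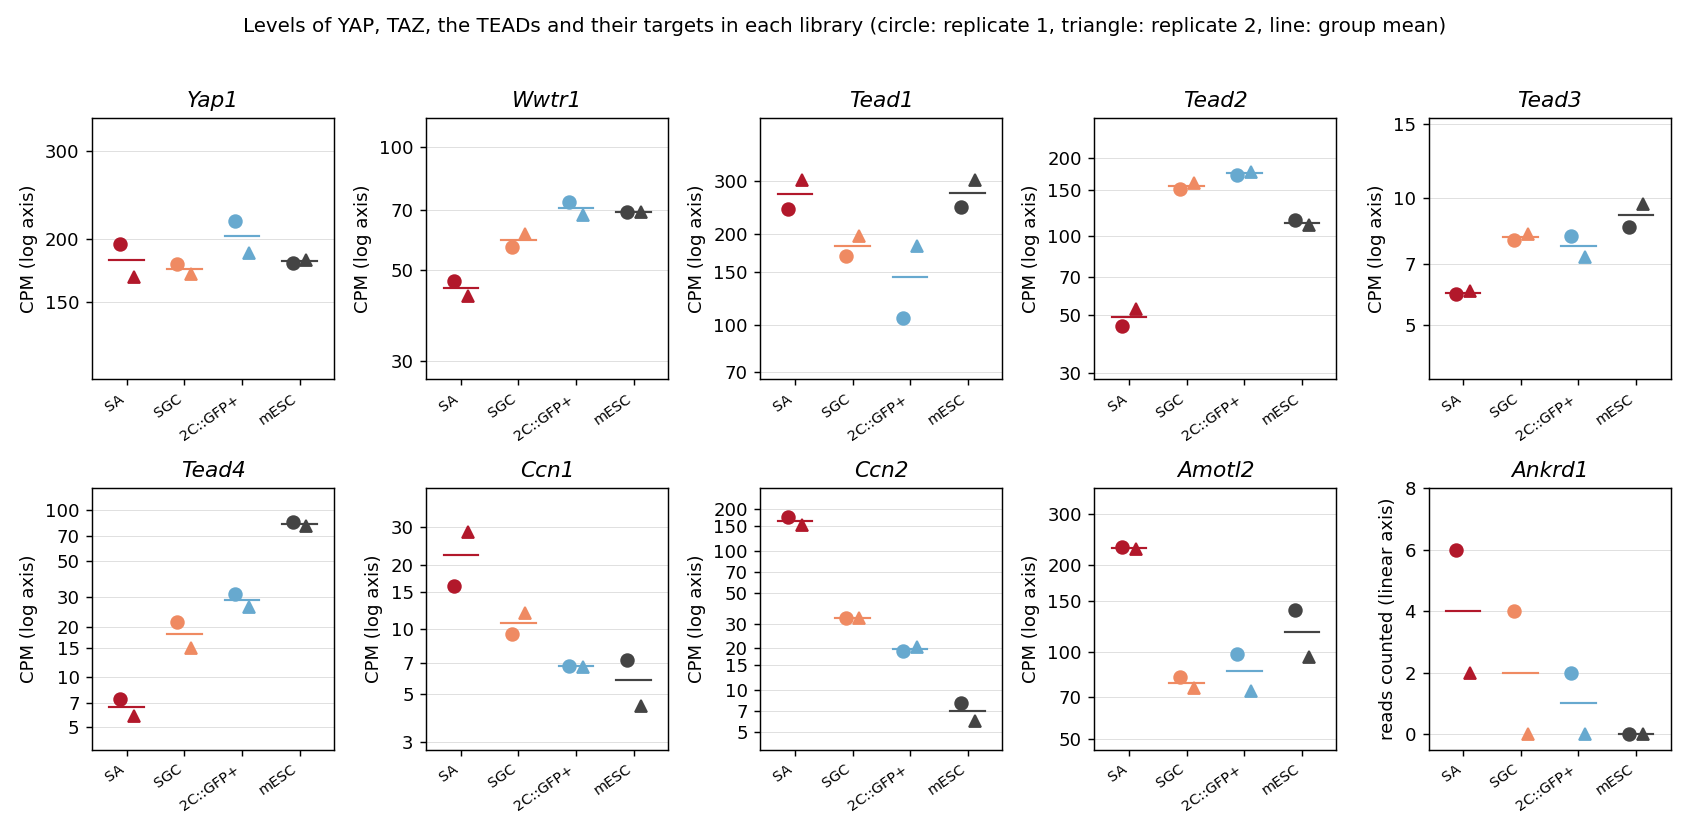
Level of each gene in each library, in CPM after TMM scaling on a log axis (Ankrd1 in reads counted, linear axis); SA and SGC stand for 2C::GFP+/SA and 2C::GFP+/SGC, circles and triangles are the 2 libraries of a group and lines the group means. Ccn2 is highest in the 2C::GFP+/SA libraries (176 and 153 CPM) and Tead4 in the mESC libraries (84.9 and 81.2 CPM), while Yap1 stays between 169 and 218 CPM.

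Yap1 (chromosome 9, bases 7931999 to 8004596, minus strand; coordinates here and below are GRCm38 from GENCODE M21) encodes the cofactor itself. It measured 196 and 169 CPM in 2C::GFP+/SA, 178 and 171 CPM in 2C::GFP+/SGC, 218 and 188 CPM in 2C::GFP+ and 180 and 182 CPM in mESC. All 8 values lay within 0.37 on the log2 scale, and the 2C::GFP+/SA pair overlapped all 3 other groups, while 2C::GFP+ lay above mESC and mESC just above 2C::GFP+/SGC. Its log2 fold change was -0.15 ± 0.13 (SE) in 2C::GFP+/SA against 2C::GFP+, with a 95% interval of -0.43 to 0.12, and 0.01 in 2C::GFP+/SA against mESC (-0.27 to 0.29). Changes of Yap1 RNA larger than these limits are therefore outside the intervals, but smaller ones are not. Of 9195 named candidate genes with a mean log2 CPM of at least 3, the 3 whose pattern over the 8 libraries lay nearest to Yap1 were Nup88, Naa15 and Metap2 (root mean square differences of 0.0449, 0.0463 and 0.0515 in centred log2 CPM).

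Wwtr1 (chromosome 3, 57455649 to 57575910, minus strand) encodes TAZ, the paralog of YAP. It measured 47.0 and 43.3 CPM in 2C::GFP+/SA, 57.1 and 61.2 CPM in 2C::GFP+/SGC, 73.5 and 68.2 CPM in 2C::GFP+ and 69.2 and 69.3 CPM in mESC. Both 2C::GFP+/SA libraries lay below all 6 others. Wwtr1 fell in 2C::GFP+/SA, with a log2 fold change of -0.65 ± 0.13 (SE) against 2C::GFP+ (edgeR, Benjamini-Hochberg adjusted p = 0.00253) and -0.62 ± 0.13 against mESC (adjusted p = 0.00179). Against 2C::GFP+/SGC its log2 fold change of -0.39 ± 0.13 missed the threshold (adjusted p = 0.0623), and 2C::GFP+ and mESC overlapped (0.03 ± 0.13). Per length, in TPM, Yap1 made up 68.3% and 66.8% of the summed Yap1 and Wwtr1 RNA in 2C::GFP+/SA, 61.7% and 59.0% for 2C::GFP+/SGC, 60.5% and 58.7% for 2C::GFP+ and 57.3% and 57.6% for mESC. Yap1 was the more abundant of the pair in all 8 libraries.

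The TEAD genes changed in both directions, and their mixture differed between groups. Tead4 (chromosome 6, 128224288 to 128300823, minus strand), the member required for trophectoderm in the mouse embryo, measured 7.36 and 5.85 CPM in 2C::GFP+/SA, 21.3 and 14.9 CPM in 2C::GFP+/SGC, 31.4 and 26.2 CPM in 2C::GFP+ and 84.9 and 81.2 CPM in mESC. No groups overlapped: 2C::GFP+/SA was lowest, then 2C::GFP+/SGC, then 2C::GFP+, and mESC was highest. Tead4 fell in 2C::GFP+/SA, with a log2 fold change of -2.10 ± 0.20 (SE) against 2C::GFP+ (adjusted p = 1.39e-05), -1.44 ± 0.20 against 2C::GFP+/SGC (adjusted p = 0.000434) and -3.62 ± 0.21 against mESC (adjusted p = 3.26e-08). Untreated 2C::GFP+ also fell below mESC, by 1.52 ± 0.19 (adjusted p = 6.95e-05). The neighbours 2C::GFP+/SGC and 2C::GFP+ did not differ past the threshold (log2 fold change -0.66 ± 0.19, 95% interval -1.07 to -0.24, adjusted p = 0.275), but the call was made without replicate 2 of 2C::GFP+/SA in the fit (adjusted p = 0.0379). The genes nearest to Tead4 in pattern were Ly75, Sfrp1 and Gjb5 (root mean square differences of 0.136, 0.168 and 0.218, beside a range of 3.85 for Tead4 itself).

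Tead2 (chromosome 7, 45215753 to 45233644, plus strand) is a TEAD known from early embryos and neural tissue. Its exons overlap those of Cd37 on the other strand, and the strand setting of the counting is not given in the sources used here, so reads of the pair cannot be told apart there; Cd37 had 6944 counts over the 8 libraries and Tead2 between 4814 and 23471 per group. Its own level was 45.3 and 52.5 CPM in 2C::GFP+/SA, 151 and 160 CPM in 2C::GFP+/SGC, 171 and 177 CPM in 2C::GFP+ and 115 and 110 CPM in mESC. No groups overlapped, with 2C::GFP+ highest and 2C::GFP+/SA lowest, on opposite sides of mESC. It fell in 2C::GFP+/SA, with a log2 fold change of -1.84 ± 0.13 (SE) against 2C::GFP+ (adjusted p = 2.23e-06), -1.67 ± 0.13 against 2C::GFP+/SGC (adjusted p = 1.70e-05) and -1.21 ± 0.13 against mESC (adjusted p = 5.00e-06). Untreated 2C::GFP+ rose above mESC by 0.63 ± 0.12 (adjusted p = 0.00227), a call that limma on TPM did not make (adjusted p = 0.0532 with a pseudocount of 1). Its value was -0.16 in 2C::GFP+/SGC against 2C::GFP+, with an interval of -0.43 to 0.10.

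Tead1 (chromosome 7, 112679318 to 112906807, plus strand), a broadly expressed TEAD, differed widely between the libraries of a group. It measured 241 and 301 CPM in 2C::GFP+/SA, 169 and 197 CPM in 2C::GFP+/SGC, 106 and 182 CPM in 2C::GFP+ and 246 and 302 CPM in mESC. The second library lay above the first in all 4 groups, and the 2C::GFP+ libraries lay below both 2C::GFP+/SA and both mESC libraries, which overlapped each other. Its log2 fold change was 0.92 ± 0.25 (SE) in 2C::GFP+/SA against 2C::GFP+ (adjusted p = 0.0230) and -0.93 ± 0.24 in 2C::GFP+ against mESC (adjusted p = 0.0244). Replicate 1 and replicate 2 libraries taken apart gave log2 ratios of 1.19 and 0.73 for the first and -1.22 and -0.73 for the second. The sign was thus the same at both depths, but both calls depended on which libraries were in the fit. The call in 2C::GFP+/SA was lost without replicate 1 of 2C::GFP+ (0.59, adjusted p = 0.0671), replicate 1 of 2C::GFP+/SA (adjusted p = 0.0578) or replicate 2 of 2C::GFP+/SA (adjusted p = 0.235). The mESC call was lost without replicate 1 of 2C::GFP+ (-0.58, adjusted p = 0.0706), either mESC library (adjusted p = 0.0713 without replicate 1 and 0.138 without replicate 2) or replicate 2 of 2C::GFP+/SA (adjusted p = 0.0999), and its value was -1.41 without replicate 2 of 2C::GFP+. Against 2C::GFP+/SGC, 2C::GFP+/SA had a value of 0.57 ± 0.24 (adjusted p = 0.156), and the deep replicate 1 libraries alone gave 0.52 and the shallow replicate 2 libraries 0.61. The difference passed without replicate 1 of 2C::GFP+ (adjusted p = 0.0300) or replicate 2 of 2C::GFP+ (adjusted p = 0.0155).

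Tead3 (chromosome 17, 28331671 to 28350817, minus strand), a TEAD known for its expression in placenta, was the scarcest of the 4 per length (2.53 to 5.01 TPM). It measured 5.94 and 6.01 CPM in 2C::GFP+/SA, 7.97 and 8.22 CPM in 2C::GFP+/SGC, 8.14 and 7.25 CPM in 2C::GFP+ and 8.53 and 9.70 CPM in mESC. Both 2C::GFP+/SA libraries lay below the other 6, yet no comparison passed the threshold: the log2 fold change was -0.37 ± 0.25 against 2C::GFP+ (adjusted p = 0.305) and -0.61 ± 0.25 against mESC (adjusted p = 0.0651), with an interval of -1.15 to -0.06 for the second.

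Per length, the sum of the 4 TEADs was 86.2 and 128 TPM in 2C::GFP+/SA, 181 and 194 TPM in 2C::GFP+/SGC, 169 and 206 TPM in 2C::GFP+ and 213 and 240 TPM in mESC. Tead1 made up 58.9% and 62.2% of it in 2C::GFP+/SA, 24.3% and 27.2% for 2C::GFP+/SGC, 14.6% and 22.8% for 2C::GFP+ and 27.0% and 32.1% for mESC. Tead2 made up 31.4% and 30.7% in 2C::GFP+/SA, 61.8% and 62.7% for 2C::GFP+/SGC, 66.8% and 62.9% for 2C::GFP+ and 35.9% and 33.2% for mESC. Tead4 made up 6.79% and 4.56% in 2C::GFP+/SA, 11.6% and 7.76% for 2C::GFP+/SGC, 16.3% and 12.4% for 2C::GFP+ and 35.2% and 32.6% for mESC. In mESC no TEAD made up more than 35.9%, while Tead2 led in 2C::GFP+ and 2C::GFP+/SGC, and Tead1 led in 2C::GFP+/SA. TPM shares carry no test here.

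**Figure D2:**
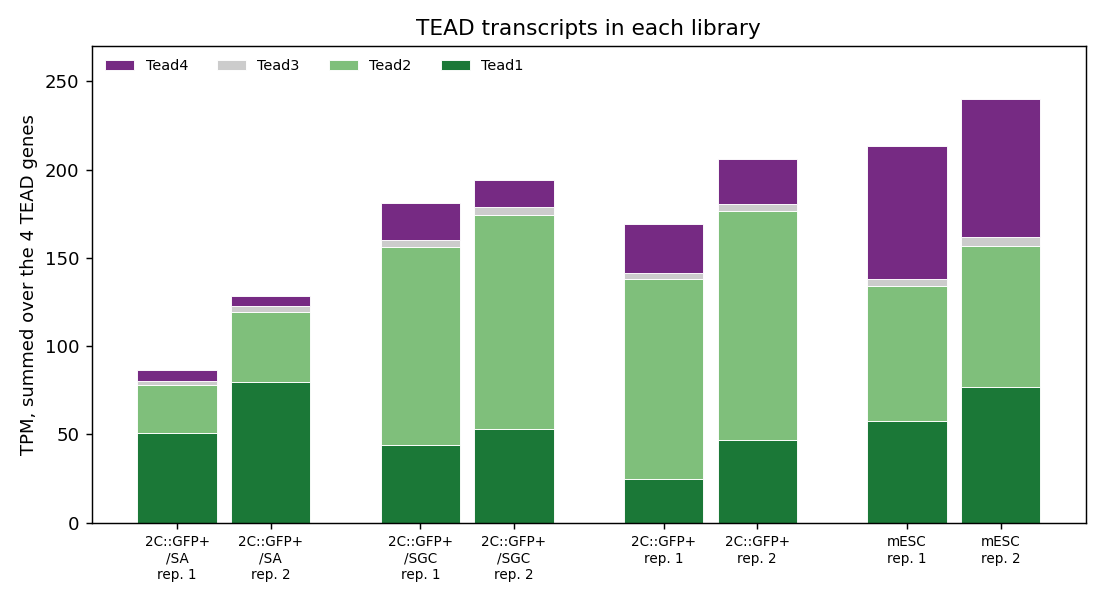
TPM of the 4 TEAD genes in each library, stacked; bars start at 0 and each bar is 1 library. The summed height is 86.2 and 128 TPM in 2C::GFP+/SA against 213 and 240 TPM in mESC, and Tead1 makes up 58.9% and 62.2% of the bar in 2C::GFP+/SA.

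Of the targets, Ccn2 (chromosome 10, 24595442 to 24598683, plus strand), a secreted matrix protein and one of the most used YAP readouts, moved most. It measured 176 and 153 CPM in 2C::GFP+/SA, 32.9 and 33.0 CPM in 2C::GFP+/SGC, 19.1 and 20.4 CPM in 2C::GFP+ and 8.09 and 5.95 CPM in mESC. No groups overlapped: 2C::GFP+/SA was highest, then 2C::GFP+/SGC, then untreated 2C::GFP+, and mESC was lowest. Ccn2 rose by 3.06 ± 0.17 (SE, log2; 8.36-fold) in 2C::GFP+/SA against 2C::GFP+, with an adjusted p of 6.41e-07 that was the smallest of all genes tested. It rose by 2.32 ± 0.16 against 2C::GFP+/SGC (adjusted p = 1.04e-05) and by 4.52 ± 0.18 (23.0-fold) against mESC (adjusted p = 2.32e-09). It also rose in 2C::GFP+ against mESC, by 1.46 ± 0.16 (2.75-fold, adjusted p = 2.53e-05). Its value of 0.74 ± 0.16 in 2C::GFP+/SGC against 2C::GFP+ had an unadjusted p of 0.000361 and an adjusted p of 0.167. That call was made without replicate 2 of 2C::GFP+/SA (adjusted p = 0.00533) and by DESeq2 (adjusted p = 0.00684). The deep libraries alone gave a log2 ratio of 3.21 in 2C::GFP+/SA against 2C::GFP+ and the shallow ones 2.91. Its exons overlap those of Gm15270 on the other strand, which had 107 counts over all libraries. Its nearest genes in pattern were Rimklb, Ercc4 and Gprc5c (root mean square differences of 0.192, 0.287 and 0.289, beside a range of 4.88).

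Ccn1 (chromosome 3, 145646976 to 145649981, minus strand), the related secreted protein, measured 15.9 and 28.3 CPM in 2C::GFP+/SA, 9.54 and 12.0 CPM in 2C::GFP+/SGC, 6.78 and 6.71 CPM in 2C::GFP+ and 7.18 and 4.41 CPM in mESC. Both 2C::GFP+/SA libraries lay above all others but differed from each other by more than the libraries of other groups, and 2C::GFP+ and mESC overlapped. Ccn1 rose by 1.70 ± 0.31 (SE, log2) against 2C::GFP+ (adjusted p = 0.00138) and by 1.89 ± 0.31 against mESC (adjusted p = 0.000282). Against 2C::GFP+/SGC it rose by 1.04 ± 0.31 (adjusted p = 0.0351). That call was lost without replicate 2 of 2C::GFP+/SA (0.60, adjusted p = 0.248), replicate 1 of 2C::GFP+/SGC (adjusted p = 0.216) or replicate 1 of 2C::GFP+ (adjusted p = 0.0550). Neither 2C::GFP+/SGC against 2C::GFP+ (0.66 ± 0.31, adjusted p = 0.508) nor 2C::GFP+ against mESC (0.19 ± 0.31, adjusted p = 0.705) passed.

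Amotl2 (chromosome 9, 102716672 to 102733418, plus strand), a YAP target whose product binds YAP and restrains it, measured 230 and 227 CPM in 2C::GFP+/SA, 81.5 and 74.9 CPM in 2C::GFP+/SGC, 98.2 and 73.5 CPM in 2C::GFP+ and 139 and 96.0 CPM in mESC. The 2C::GFP+/SA libraries lay above all others, and the other 3 groups were close, with 2C::GFP+ overlapping both 2C::GFP+/SGC and mESC. It rose by 1.41 ± 0.18 (SE, log2) in 2C::GFP+/SA against 2C::GFP+ (adjusted p = 0.000136), by 1.55 ± 0.18 against 2C::GFP+/SGC (adjusted p = 0.000188) and by 0.96 ± 0.18 against mESC (adjusted p = 0.000818). Its value in 2C::GFP+ against mESC was -0.45 ± 0.18 (adjusted p = 0.0820), opposite in sign to that of Ccn2. It passed there without replicate 2 of mESC (-0.70, adjusted p = 0.00816), replicate 1 of 2C::GFP+ (-0.67, adjusted p = 0.0459) or replicate 2 of 2C::GFP+/SA (-0.48, adjusted p = 0.040).

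Ankrd1 (chromosome 19, 36111961 to 36120099, minus strand), an ankyrin repeat protein of muscle and a classical YAP target in many cell types, was near the limit of detection. It had 6 and 2 counts in 2C::GFP+/SA, 4 and 0 counts in 2C::GFP+/SGC, 2 and 0 counts in 2C::GFP+ and 0 and 0 counts in mESC. Summed over a group, 8 counts in 2C::GFP+/SA stood against 2 in 2C::GFP+, a ratio per total counts of 5.24 with an exact 95% Poisson interval of 1.05 to 50.7, which covers counting error only. Against the 4 counts in 2C::GFP+/SGC the ratio was 2.703, with an interval of 0.724 to 12.3. That interval also covers a lower level in 2C::GFP+/SA, so no rise is read there. In mESC, 0 counts allow up to 0.0181 CPM over the group (3 counts). Set against that limit, the 8 counts in 2C::GFP+/SA gave a ratio per total counts of 4.04. This ratio takes the 8 counts as exact, so it is not a lower bound of the difference.

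**Figure D3:**
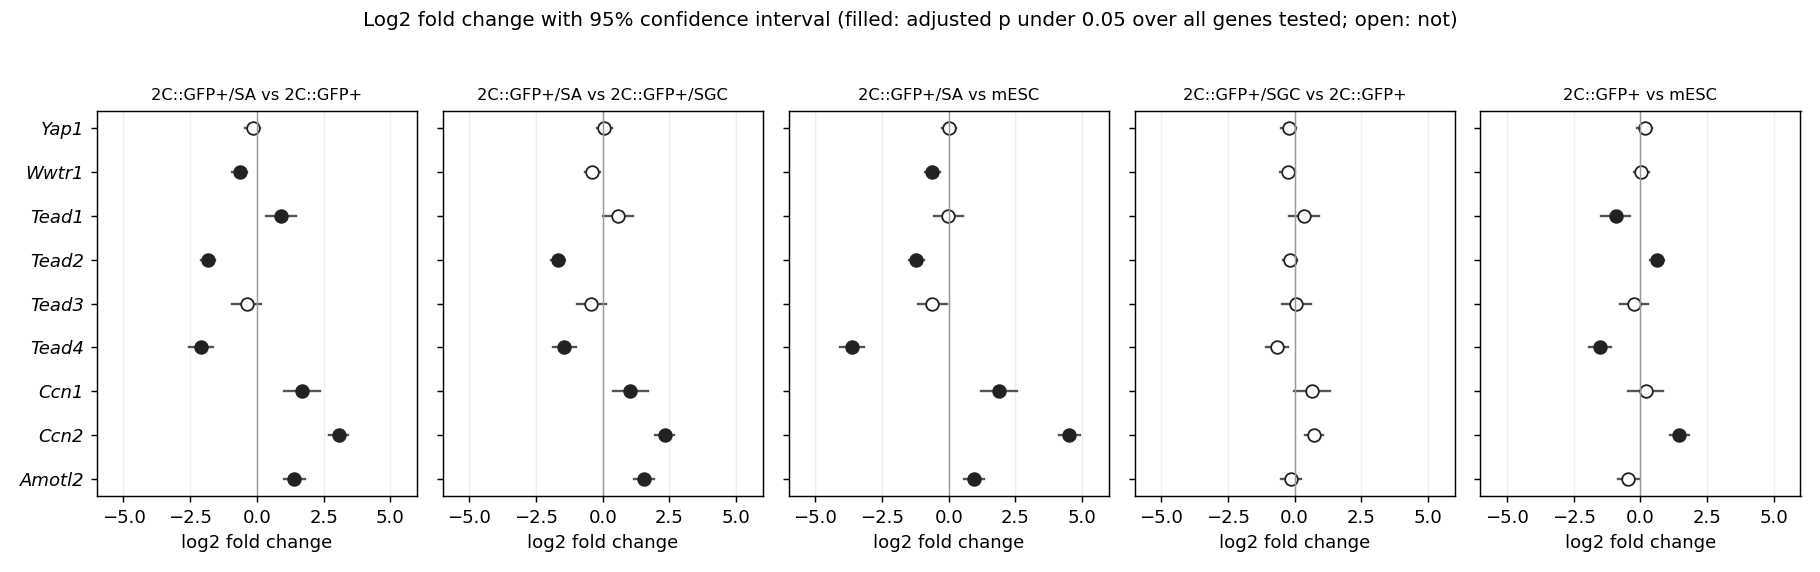
Log2 fold change of each tested gene (points) with its 95% confidence interval (lines) in 5 comparisons; filled points have an adjusted p under 0.05 over all genes tested. The targets Ccn1, Ccn2 and Amotl2 lie right of 0 and Tead2 and Tead4 left of 0 in the 3 comparisons with 2C::GFP+/SA, with Ccn2 at 3.06 and Tead4 at -2.10 against 2C::GFP+.

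Per length, the targets were also ranked differently between groups. Ccn2 averaged 184 ± 11.6 TPM in 2C::GFP+/SA (SD, n = 2), the highest of the 10 genes there, and 8.10 ± 1.26 TPM in mESC, where it lay under all but Tead3 and Ankrd1. Amotl2 averaged 117 ± 18.1 TPM in 2C::GFP+/SA and 61.6 ± 12.3 TPM in mESC. Ccn1 averaged 36.5 ± 19.8 TPM in 2C::GFP+/SA and 9.44 ± 2.64 TPM in mESC. Replicate 1 libraries, which are deep, and replicate 2 libraries, which are shallow, gave the same sign for each of the called values above.

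Among 25 Hippo kinases and upstream regulators (24 tested), 3 rose and 4 fell in 2C::GFP+/SA against 2C::GFP+, with a list median of 0.00 beside 0.01 for all genes. These are 12.5% and 16.7% of the list, near the 14.9% and 13.8% of all genes, so nothing about the list is read from the counts. Amot, a motin like Amotl2 that binds YAP, averaged 81.1 CPM in 2C::GFP+/SA, against 10.7 in 2C::GFP+, and rose by 2.94 ± 0.25 (SE, log2; adjusted p = 1.22e-05). Wwc2, a scaffold of the LATS kinases, averaged 90.7 CPM in 2C::GFP+/SA, against 151 in 2C::GFP+, and fell by 0.73 ± 0.12 (adjusted p = 0.000557), and Nf2, the upstream activator merlin, averaged 141 CPM in 2C::GFP+/SA, against 227 in 2C::GFP+, and fell by 0.69 ± 0.14 (adjusted p = 0.00244). Without replicate 1 of 2C::GFP+ the counts were 1 higher and 2 lower. The LATS kinases did not pass the test: Lats1 averaged 34.2 CPM in 2C::GFP+/SA, against 25.2 in 2C::GFP+ (adjusted p = 0.0629), and Lats2 averaged 2.95 CPM, against 2.38 in 2C::GFP+ (adjusted p = 0.721).

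For 2C::GFP+ against mESC, 3 of the 24 rose and 7 fell, with a median of -0.35 beside 0.04 for all genes. The share that rose, 12.5%, is near the 15.2% of all genes, and the share that fell is 29.2% beside 9.12%. Map4k4, a kinase that can phosphorylate LATS, averaged 179 CPM in 2C::GFP+, against 380.0 in mESC, and fell by 1.08 ± 0.13 (adjusted p = 5.21e-05). Frmd6, a FERM domain protein upstream of the cascade, averaged 14.6 CPM in 2C::GFP+, against 34.2 in mESC, and fell by 1.22 ± 0.20 (adjusted p = 0.000550). Wwc2 rose by 0.76 ± 0.12 (adjusted p = 0.000419), the opposite of its direction in 2C::GFP+/SA against 2C::GFP+. Those counts are unsteady: 2 fell without replicate 1 of mESC, 1 rose and 2 fell without replicate 1 of 2C::GFP+, and 1 rose without replicate 2 of mESC.

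Among 8 TEAD competitors and YAP partners (7 tested), 4 rose and 1 fell in 2C::GFP+/SA against 2C::GFP+, with a list median of 1.63, where 14.9% and 13.8% of all genes did. Vgll1, Vgll2 and Vgll3 belong to the vestigial-like family, which binds TEADs in place of YAP. Vgll1 averaged 3.90 CPM in 2C::GFP+/SA, against 0.495 in 2C::GFP+, and rose by 2.90 ± 0.60 (SE, log2; adjusted p = 0.00276). Vgll2 had 109 counts in 2C::GFP+/SA, against 1 in 2C::GFP+, a ratio per total counts of 143 (exact 95% Poisson interval 25.1 to 5695, counting error only). Its edgeR call was lost without replicate 1 of 2C::GFP+, when the remaining 2C::GFP+ library held 0 counts. Runx1, a transcription factor that binds YAP and TAZ, averaged 4.48 CPM in 2C::GFP+/SA, against 0.231 in 2C::GFP+, and rose by 4.26 ± 0.67 (adjusted p = 0.000429). Wbp2, a YAP-binding coactivator, fell by 0.42 ± 0.13 (adjusted p = 0.0270 by edgeR). DESeq2 (adjusted p = 0.137), RLE scaling (0.0799) and limma at the 2 pseudocounts (0.112 and 0.114) did not make that call. It was also lost without a low-count filter (0.0514), with a stricter one (0.0547) or with only the 4 libraries compared (0.0514). Leaving out replicate 1 of 2C::GFP+, replicate 2 of 2C::GFP+ or replicate 1 of 2C::GFP+/SA lost it too (log2 fold changes -0.46, -0.37 and -0.30). Between 2C::GFP+ and mESC, 1 of the 7 (Vgll1) was higher in 2C::GFP+ and 0 lower by edgeR, with a median of -0.66. These are 14.3% and 0% of the list, where 15.2% and 9.12% of all genes were higher and lower. Nothing about the list is read from so few calls. At an unadjusted p under 0.05 and by DESeq2, 1 was higher and 1 lower. The Vgll1 call was lost with limma on log2(TPM + 1) (adjusted p = 0.201). It was also lost without replicate 1 of mESC (log2 fold change 2.33) or replicate 1 of 2C::GFP+ (3.54). The number that fell also changed when some single libraries were left out.

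A further 21 genes held to be YAP or TAZ targets (19 tested) were not uniform in direction. In 2C::GFP+/SA against 2C::GFP+, 7 rose (36.8%, beside 14.9% of all genes) and 3 fell (15.8%, beside 13.8%), with a list median of 0.38. Igfbp3, an insulin-like growth factor binding protein, averaged 262 CPM in 2C::GFP+/SA, against 34.2 in 2C::GFP+, and rose by 2.94 ± 0.22 (SE, log2; adjusted p = 9.79e-06). Crim1, a membrane protein, rose by 2.03 ± 0.24 (adjusted p = 5.27e-05), and Rbms3, an RNA-binding protein, by 3.76 ± 0.50 (adjusted p = 0.000157). Gadd45a, a stress-induced gene, averaged 14.6 CPM in 2C::GFP+/SA, against 35.2 in 2C::GFP+, and fell by 1.28 ± 0.20 (adjusted p = 0.000364). For 2C::GFP+ against mESC, 7 rose (36.8%, beside 15.2% of all genes) and 4 fell (21.1%, beside 9.12%), with a list median of 0.20. There Gadd45a rose by 1.99 ± 0.20 (adjusted p = 9.97e-06) and Igfbp3 by 2.22 ± 0.22 (adjusted p = 3.49e-05), while Axl, a receptor tyrosine kinase, fell by 2.66 ± 0.49 (adjusted p = 0.00239). The 4 that fell became 2 without replicate 1 of mESC or replicate 1 of 2C::GFP+, and 1 without replicate 2 of either group.

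Set against 2C::GFP+/SGC, 2C::GFP+/SA was higher at 8 of the 19 further targets and lower at 2, beside 7.92% and 8.18% of all genes, with a list median of 0.45, and 3 were higher and 0 lower without replicate 1 of 2C::GFP+/SGC, while 5 were higher without its replicate 2. The 2 lower became 1 without replicate 1 of mESC or either 2C::GFP+ library. Fjx1, a secreted protein, averaged 57.7 CPM in 2C::GFP+/SA, against 10.4 in 2C::GFP+/SGC, and rose by 2.46 ± 0.34 (SE, log2; adjusted p = 0.00128), and Igfbp3 rose by 2.02 ± 0.21 (adjusted p = 0.000164). Set against mESC, 7 of the 19 were higher and 3 lower, beside 25% and 20.1% of all genes, with a list median of 0.48, and no single library moved these counts by more than 1. Igfbp3 averaged 262 CPM in 2C::GFP+/SA, against 7.23 in mESC, and rose by 5.16 ± 0.25 (adjusted p = 5.83e-08). Amot, the motin, also rose in both, by 2.09 ± 0.24 against 2C::GFP+/SGC (adjusted p = 0.000203) and 2.57 ± 0.25 against mESC (adjusted p = 5.21e-06).

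**Figure D4:**
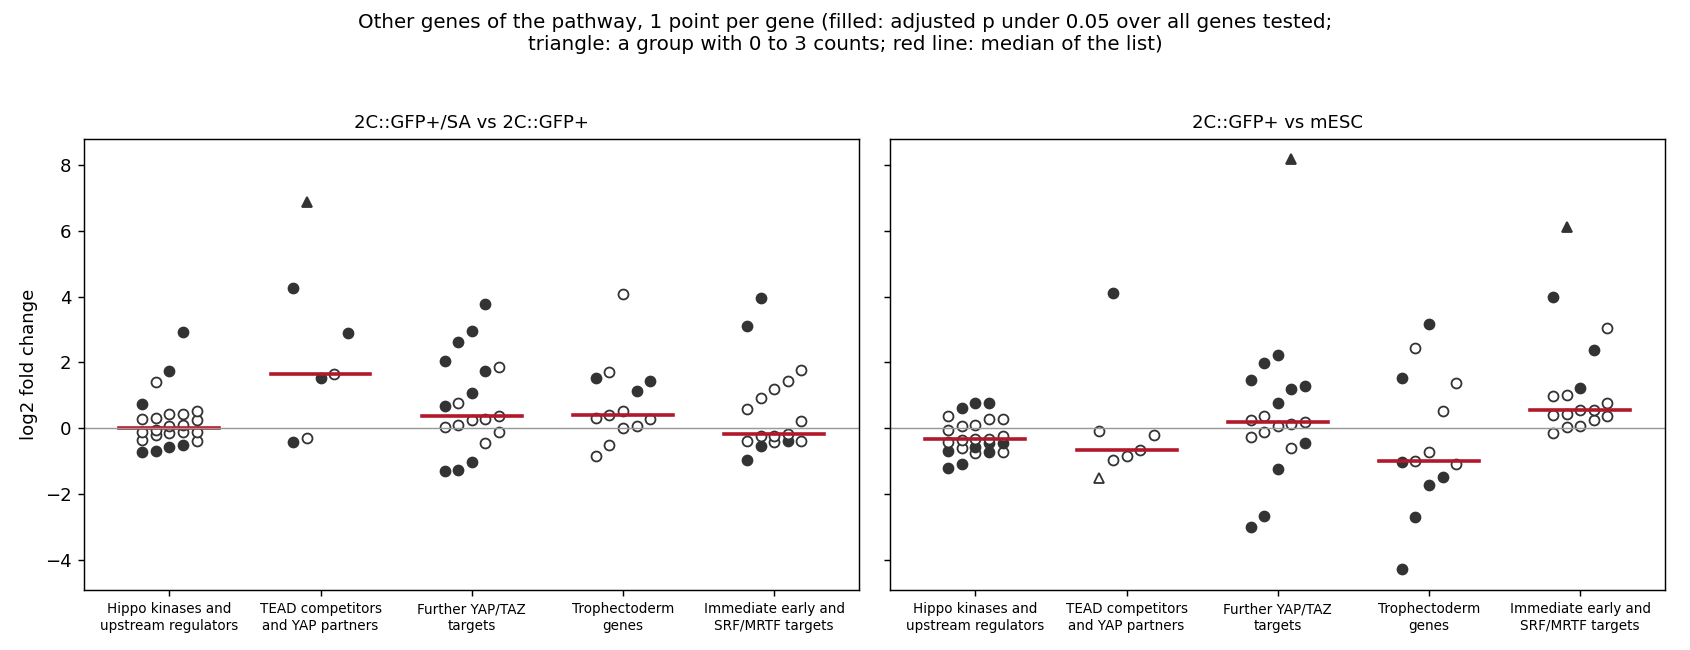
Log2 fold change of each tested gene of 5 lists in 2C::GFP+/SA against 2C::GFP+ (left) and in 2C::GFP+ against mESC (right); filled points have an adjusted p under 0.05 over all genes tested, red lines are list medians, and triangles are genes with 0 to 3 counts in a group, whose fitted value depends on the prior count. The median of the TEAD competitors and YAP partners is 1.63 on the left, and that of the trophectoderm genes is -1.01 on the right.

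Trophectoderm genes, which TEAD4 acts on in the embryo, included 5 of 13 tested that fell and 2 that rose in 2C::GFP+ against mESC, with a median of -1.01, where 9.12% of all genes fell and 15.2% rose. Cdx2, the trophectoderm regulator downstream of TEAD4, averaged 0.328 CPM in 2C::GFP+, against 6.34 in mESC, and fell by 4.30 ± 0.55 (SE, log2; adjusted p = 7.64e-05). Krt8, an epithelial keratin, averaged 5.4 CPM in 2C::GFP+, against 36.3 in mESC, and fell by 2.72 ± 0.26 (adjusted p = 6.14e-06). Eomes, a T-box factor of the trophoblast, fell by 1.47 ± 0.25 (adjusted p = 0.000648). The 2 that rose became 1 without any single one of the 4 libraries compared. In 2C::GFP+/SA against 2C::GFP+, 3 of 13 rose and 0 fell by edgeR (4 and 0 at an unadjusted p under 0.05, 4 and 0 by DESeq2), with a median of 0.39, where 14.9% of all genes rose and 13.8% fell. Krt8 rose by 1.42 ± 0.25 (adjusted p = 0.00109), and it alone was called without replicate 1 or without replicate 2 of 2C::GFP+; without replicate 2 of 2C::GFP+/SA, 1 gene fell. Cdx2 stayed at 0.428 CPM in 2C::GFP+/SA, against 0.328 in 2C::GFP+ (adjusted p = 0.670).

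Of 20 immediate early genes and targets of SRF and MRTF (17 tested), which respond to stimuli that also reach Ccn1 and Ccn2, 2 rose and 3 fell in 2C::GFP+/SA against 2C::GFP+, with a list median of -0.17. These are 11.8% and 17.6% of the list, near the 14.9% and 13.8% of all genes, so nothing about the list is read from the counts. Cnn2, a calponin, averaged 14.6 CPM in 2C::GFP+/SA, against 28.6 CPM in 2C::GFP+, and fell by 0.97 ± 0.21 (SE, log2; adjusted p = 0.00364; 0.0605 without replicate 1 of 2C::GFP+). Tpm1, a tropomyosin, averaged 37.3 CPM in 2C::GFP+/SA, against 54.0 CPM in 2C::GFP+, and fell by 0.54 ± 0.16 (adjusted p = 0.0237 by edgeR). Limma at the 2 pseudocounts did not make that call (adjusted p = 0.0924 and 0.0945). Leaving out replicate 1 of 2C::GFP+ or replicate 1 of 2C::GFP+/SA lost it too (log2 fold changes -0.47 and -0.36). Tagln2, a transgelin, averaged 134 CPM in 2C::GFP+/SA, against 177 CPM in 2C::GFP+, and fell by 0.40 ± 0.13 (adjusted p = 0.0395 by edgeR). DESeq2 (adjusted p = 0.178), RLE scaling (0.105) and limma at the 2 pseudocounts (0.126 and 0.131) did not make that call. It was also lost without a low-count filter (0.0736), with a stricter one (0.0709) or with only the 4 libraries compared (0.0640). Leaving out any one of replicate 1 of mESC, of 2C::GFP+, of 2C::GFP+/SGC and of 2C::GFP+/SA or replicate 2 of 2C::GFP+ lost it too (log2 fold changes -0.36, -0.37, -0.36, -0.24 and -0.42). Among those that rose, Atf3 averaged 16.1 CPM in 2C::GFP+/SA, against 1.13 in 2C::GFP+, and rose by 3.97 ± 0.49 (SE, log2; adjusted p = 9.10e-05), and Jun, an AP-1 subunit named after its values were seen, averaged 74.2 CPM in 2C::GFP+/SA, against 9.07 in 2C::GFP+, and rose by 3.09 ± 0.35 (adjusted p = 0.000314). Egr1, Fos and Srf did not pass the test (adjusted p = 0.745, 0.361 and 0.125). The 3 that fell became 0 without replicate 1 of 2C::GFP+, 1 without replicate 1 of 2C::GFP+/SA and 5 without replicate 2 of 2C::GFP+/SA. Between 2C::GFP+ and mESC, 4 were higher in 2C::GFP+ and 0 lower by edgeR (8 and 0 at an unadjusted p under 0.05, 6 and 0 by DESeq2), with a median of 0.54, where 15.2% of all genes rose and 9.12% fell. There Cnn2 averaged 28.6 CPM in 2C::GFP+, against 12.5 in mESC, and rose by 1.21 ± 0.21 (adjusted p = 0.000871). The 4 that rose became 2 without replicate 1 of mESC or replicate 2 of 2C::GFP+ and 7 without replicate 2 of 2C::GFP+/SA.

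In 2C::GFP+/SGC against 2C::GFP+, where SGC0946 and medium cannot be told apart, edgeR called 0 genes of these 5 lists. At an unadjusted p under 0.05 stood 2037 of all 20608 genes tested, in either direction. Of the 19 further YAP or TAZ targets tested, 3 were higher and 1 lower there, and of the 24 Hippo regulators 2 were higher and 1 lower. There were 2 higher and 0 lower among the 7 competitors and partners tested, 1 and 0 among the 13 trophectoderm genes, and 2 and 2 among the 17 immediate early genes. Nothing about the lists is read from these few genes. DESeq2 called 2 genes of the lists, both further YAP or TAZ targets and both higher, beside 275 of all genes.

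In 2C::GFP+/SA against 2C::GFP+ and against mESC, ESC markers moved with Tead4, Tead2 and Wwtr1, and their part in those results was not tested. In 2C::GFP+ against mESC, 1 of the 12 rose and 2 fell (8.33% and 16.7%), where 15.2% and 9.12% of all genes did. There Tead4 fell, Tead2 rose and Wwtr1 did not pass the test. Of the 12, 7 fell and 2 rose in 2C::GFP+/SA against 2C::GFP+, where 13.8% of all genes fell and 14.9% rose; 4 fell and 1 rose without replicate 1 of 2C::GFP+, and 1 rose without replicate 2 of 2C::GFP+ or of 2C::GFP+/SA. Against mESC 7 fell and 2 rose as well, where 20.1% of all genes fell and 25% rose. Tfcp2l1, a factor of the naive state, averaged 146 CPM in 2C::GFP+/SA, against 334 CPM in 2C::GFP+ and 1291 CPM in mESC, and fell by 1.19 ± 0.15 (SE, log2; adjusted p = 7.46e-05) against 2C::GFP+ and by 3.14 ± 0.16 (adjusted p = 9.54e-09) against mESC. Esrrb, a nuclear receptor of ESCs, averaged 364 CPM in 2C::GFP+/SA, against 708 CPM in 2C::GFP+, and fell by 0.96 ± 0.13 (adjusted p = 0.000112). Sox2, a core pluripotency factor, averaged 252 CPM in 2C::GFP+/SA, against 461 CPM in 2C::GFP+, and fell by 0.87 ± 0.13 (adjusted p = 0.000255), while Sall4, a zinc finger factor, rose by 0.92 ± 0.14 (adjusted p = 0.000335).

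In 2C::GFP+/SA against 2C::GFP+, markers of other cell types moved with Ccn2, Ccn1 and Amotl2, and their part in those results was not tested. Of 12 tested fibroblast markers (19 in the list), 8 rose and 0 fell in 2C::GFP+/SA against 2C::GFP+ by edgeR, where 14.9% and 13.8% of all genes did (9 and 1 at an unadjusted p under 0.05, 8 and 0 by DESeq2); 5 rose without replicate 1 of 2C::GFP+, and 1 fell without replicate 2 of 2C::GFP+/SA. Their sum was 93.6 to 103 CPM in 2C::GFP+/SA, 53.3 to 56.0 CPM in 2C::GFP+/SGC, 35.7 to 38.0 CPM in 2C::GFP+ and 19.0 to 27.0 CPM in mESC. Fbn1, which encodes fibrillin, averaged 29.4 CPM in 2C::GFP+/SA, against 6.75 CPM in 2C::GFP+, and rose by 2.14 ± 0.29 (SE, log2; adjusted p = 0.000169). Thy1, a surface antigen of fibroblasts and other cells, averaged 20.3 CPM in 2C::GFP+/SA, against 7.21 CPM in 2C::GFP+ (adjusted p = 0.000545), and Col5a2, a fibrillar collagen, rose by 2.03 ± 0.37 (adjusted p = 0.00118). The markers S100a4, Lum, Postn, Fap and Twist2 averaged 0 to 0.0219 CPM in 2C::GFP+/SA, against 0 in 2C::GFP+, and Col3a1 averaged 0.0548 CPM in 2C::GFP+/SA, against 0.0250 in 2C::GFP+. Of 14 tested primitive endoderm markers (15 in the list), 12 rose and 1 fell in 2C::GFP+/SA against 2C::GFP+, 5 rising without replicate 1 of 2C::GFP+. Their sum was 2202 to 2351 CPM in 2C::GFP+/SA, 1218 to 1329 CPM in 2C::GFP+/SGC, 1289 to 1432 CPM in 2C::GFP+ and 1502 to 1567 CPM in mESC. Much of it was Lamc1, at 1363 and 1143 CPM in 2C::GFP+/SA and 915 and 896 CPM in mESC. Gata6, a defining regulator, averaged 21.7 CPM in 2C::GFP+/SA, against 2.13 in 2C::GFP+ and 0.0878 in mESC. Trophoblast markers, beside which Tead4 is read, summed to 17.7 to 19.0 CPM in 2C::GFP+/SA, 14.4 to 16.9 CPM in 2C::GFP+/SGC, 14.6 to 16.8 CPM in 2C::GFP+ and 38.5 to 47.7 CPM in mESC. They share Cdx2, Gata3, Eomes, Elf5, Hand1, Krt7 and Tfap2a with the trophectoderm list, so the lists are not separate evidence. Of 8 tested (10 in the list), 1 (Plac1) rose and 0 fell in 2C::GFP+/SA against 2C::GFP+ (12.5% and 0%, beside 14.9% and 13.8% of all genes). In 2C::GFP+ against mESC, 1 (Gata3) rose and 3 fell (12.5% and 37.5%, beside 15.2% and 9.12% of all genes). The Plac1 call was lost without replicate 1 of 2C::GFP+/SA (log2 fold change 4.46) or of 2C::GFP+ (8.75). The Gata3 call was lost with limma on log2(TPM + 1) (adjusted p = 0.119). It was also lost without replicate 2 of mESC (log2 fold change 2.75) or replicate 1 of 2C::GFP+ (2.22). Prl3d1 was at 0 in all 8 libraries.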

How the data were processed

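Polyadenylated RNA of 8 libraries was sequenced, 2 per group. The authors deposited whole-number read counts per gene, not normalized, and TPM values. The submitters' processing notes list STAR 2.7.4a, featureCounts 2.0.0, Trim Galore 0.6.5, FastQC 0.11.9 and Cell Ranger, with builds mm10 and GRCm38; annotation and strand setting: not given in the sources used here. Implied lengths of the deposited TPM equalled the exon union lengths of GENCODE M21. Columns were matched to samples by group name, and the 2C::GFP+ columns, named after a serum replacement, by elimination (0 columns unused). Of 55573 genes, 55480 matched GENCODE M21 and 55394 the names table.

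Counts of all 8 libraries were scaled by TMM (factors 0.942 to 1.059), filtered with filterByExpr (20608 genes kept) and tested with edgeR 4.0.16 (R 4.3.3) by robust quasi-likelihood F tests, 4 residual degrees of freedom, two-sided, with Benjamini-Hochberg adjustment over all tested genes and a threshold of 0.05. A log2 fold change is the first group over the second, and its SE is the value over the square root of F. Alternatives used DESeq2 1.42.0 and limma 3.58.1 on log2(TPM + 1) and log2(TPM + 0.1), other scalings and filters, fewer libraries and a replicate block. The test was tried on simulated data. Floors are 3 counts and intervals 95%. Floors and Poisson intervals cover counting error only. Intervals of log2 fold changes come from the edgeR fit and include the spread between libraries.

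The genes and lists were chosen with earlier results of these data known. From each list the text could name up to 3 called genes with the smallest adjusted p in the more frequent direction and 1 in the other. Pattern neighbours were sought among genes with a mean log2 CPM of at least 3 (prior count 2). Replicates of a group differed beyond sampling noise (chi-square per degree of freedom 17.8 to 46.6), so none was merged. The totipotent-like stem cells named in the design text are not analysed here.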

Additional observations from a re-analysis of the deposited data

How the results depend on the processing

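The number of called genes among the 9 tested stayed within 1.5 times the reported one under all alternatives run in the 3 comparisons with 2C::GFP+/SA. In 2C::GFP+ against mESC, 4 were called, and 2 with limma on log2(TPM + 1) or on log2(TPM + 0.1). In 2C::GFP+/SGC against 2C::GFP+, 0 were called, but 1 (Ccn2) by DESeq2 or with only the 4 libraries compared, 2 (Ccn2 and Tead4) without a filter on low counts or with the replicate block, and 0 to 2 when 1 library was left out. Replicate numbers are not known to pair samples: the differences between replicates 1 and 2 correlated between groups at 0.0411 to 0.142, with only 2 replicates per group. With the replicate block Amotl2 also passed in 2C::GFP+ against mESC (adjusted p = 0.0163), and Wwtr1 (0.0392) and Tead1 (0.00548) in 2C::GFP+/SA against 2C::GFP+/SGC. The fit without both 2C::GFP+/SA libraries was added after the data were seen, and Tead1 missed the threshold in it (adjusted p = 0.0544 in 2C::GFP+ against mESC).

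Signs turned only where no call was made. Yap1 in 2C::GFP+/SA against 2C::GFP+/SGC (0.06) was -0.103 and -0.104 with limma at the 2 pseudocounts and -0.0399 to 0.196 with 1 library left out; against mESC (0.01) it was -0.0427 and -0.0433, and -0.0742 to 0.118. Tead1 in 2C::GFP+/SA against mESC (-0.02) was 0.0661 with DESeq2, 0.0670 with RLE scaling, 0.00754 without a filter, 0.0455 with a stricter one, 0.00227 with 4 libraries, and -0.183 to 0.167 with 1 library left out. Leaving out 1 library gave -0.0964 to 0.594 for Ccn1 and -0.0101 to 0.0536 for Wwtr1 in 2C::GFP+ against mESC, and -0.00299 to 0.792 for Tead1, -0.00487 to 0.149 for Tead3 and -0.321 to 0.0822 for Amotl2 in 2C::GFP+/SGC against 2C::GFP+. The causes were not tested. Of the alternative values of the 9 genes, 670 kept direction and side of the threshold, 22 passed it newly, 24 lost it and 22 turned sign.

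Over all genes, limma on log2(TPM + 1) called 2924 in 2C::GFP+ against mESC instead of 5016, and with log2(TPM + 0.1) 36.1% of the calls in 2C::GFP+/SA against 2C::GFP+/SGC were higher instead of 49.2%; there the median of all genes was -0.17 instead of -0.02. In 2C::GFP+/SGC against 2C::GFP+ 0 genes were called by edgeR, 499 without a filter, 326 with only 4 libraries, 284 with the replicate block and 79 without both 2C::GFP+/SA libraries. The count was 2210 instead of 3319 in 2C::GFP+/SA against 2C::GFP+/SGC with only 4 libraries. Without 1 library the calls ranged from 2872 to 5869 genes in 2C::GFP+ against mESC, 0 to 431 in 2C::GFP+/SGC against 2C::GFP+, 2890 to 5861 in 2C::GFP+/SA against 2C::GFP+ and 1207 to 3324 against 2C::GFP+/SGC. Ankrd1, with 0 to 6 counts per library, was removed by the filter on low counts and not fitted.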
